A study of Mus musculus with 4 samples.

Results

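Chemokines and interleukins are secreted or membrane-anchored signalling proteins, and their genes were examined in mouse embryonic fibroblasts (MEFs) undergoing hepatocyte reprogramming with or without functional Cre at a conditional Prox1 locus. Genes were taken by name: Cxcl or Ccl followed by digits, Cx3cl1, and Il followed by digits and at most 1 letter, with receptor genes removed. Of 55397 genes in the table, 66 ligand genes met this rule, namely 33 chemokines and 33 interleukins. The 45 with a positive value in at least 1 library, 29 chemokines and 16 interleukins, were kept, and the other 21 were at 0 in all 4 libraries. The 35 that averaged 10 or more normalized counts (reads on a gene divided by the library's size factor), 25 chemokines and 10 interleukins, were tested.

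All 4 bulk RNA-seq libraries came from primary MEFs of E13.5 C57BL/6J embryos homozygous for a floxed Prox1 allele, and all received the 4in1 lentivirus, which encodes 4 hepatocyte-inducing transcription factors, and were harvested at day 14. According to the methods, rtTA lentivirus was added with 4in1. The Prox1 KO group (n = 2) also received lentiviral Cre-recombinase with GFP (cre-GFP). The control group (n = 2) received a non-functional delta Cre-recombinase with GFP (dcre-GFP), so it carries the same floxed allele and the same reprogramming factors. The methods state that MEFs were prepared from pooled embryos and that bulk MEF data were fitted with the primary MEF line as a covariate; the labels number the libraries 1 and 2 in both groups without saying whether these numbers are MEF lines. Because cultures were harvested whole, fewer cells of one kind and less RNA per cell cannot be told apart. The labels do not say that libraries of a group came from separate cultures, and the methods' covariate is not tied to these numbers. The spread between these samples that enters the p-values may therefore be technical. In limma each gene's variance is drawn toward a trend over all genes tested. The limma standard errors and p-values thus do not measure a gene's own spread alone.

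Chemokines are small proteins that direct cell migration through G protein-coupled receptors and are classed by the spacing of their first cysteines into CXC, CC and CX3C groups. Interleukins are structurally diverse cytokines, including the IL-1, IL-6, IL-17 and common gamma chain families, that signal through their own receptors. Fibroblasts are known to make many of these ligands, in particular Cxcl12, Ccl2 and Il6, and many of the genes are induced by nuclear factor kappa B (NF-κB) or by interferons.

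Read depth was similar across libraries, with 42469031 to 48524008 reads on genes. Prox1, the targeted gene, was at 72.7 and 61.6 normalized counts under the label Prox1 KO and at 60.6 and 25.5 in the controls. Both values under that label were thus above both controls, and its difference did not pass the test (adjusted p = 0.0936, limma). The labels and methods do not say which part of Prox1 is floxed, and whole-gene counts need not show the loss of a part. Because this gene does not check the labels, Prox1 KO below means the libraries that carry that label, and every direction rests on the labels.

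The ligand genes that were abundant in these cultures were mostly lower in Prox1 KO. Of the 35 tested genes, 11 fell, including Cxcl12, Cxcl10, Ccl2 and Ccl11, 1 rose (Il25), and 23 did not pass the test (limma on log2(normalized counts + 1) blocked on replicate number, Benjamini-Hochberg adjusted p under 0.05). This is 34.3% called in either direction beside a background of 11.4% over all 15809 genes tested. It is 31.4% lower beside a background of 6.29%, and 2.86% higher beside 5.09%. The median log2 fold change of the 35 genes was -0.23, beside -0.0022 for all genes tested. Within the pair of libraries numbered 1 the median was -0.23, and within the pair numbered 2 it was -0.13. These calls rest on the replicate block, since 0 of the 35 passed in limma without it, where 10 had an unadjusted p under the same 0.05. Over all 15809 genes tested, limma without the block also called 0. With the block, edgeR on the recovered reads called the same 12 genes, and DESeq2 called 5, Cxcl10, Cxcl12, Cxcl14, Ccl2 and Cx3cl1, all lower, beside a background of 2.07% lower among the genes to which it gave an adjusted p. Of the 35 ligand genes, 9 had no adjusted p in DESeq2.

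Separation of the groups did not depend on the fit. Both Prox1 KO values lay below both control values for 16 of the 35 genes, or 45.7%, beside 22.6% of all genes tested. Both lay above for 5 genes (Il7, Il18, Ccl6, Ccl17 and Il25), or 14.3%, beside 21.8% of all genes tested. The groups overlapped for the remaining 14, which include the called genes Ccl8 and Cxcl14. In 14 of the 35 genes the mean difference between replicates 1 and 2 exceeded the difference between groups, and Ccl8 and Cxcl14 were again the called genes among them. An exact permutation test on a single gene with 2 libraries against 2 cannot go below p = 0.333.

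**Figure D1:**
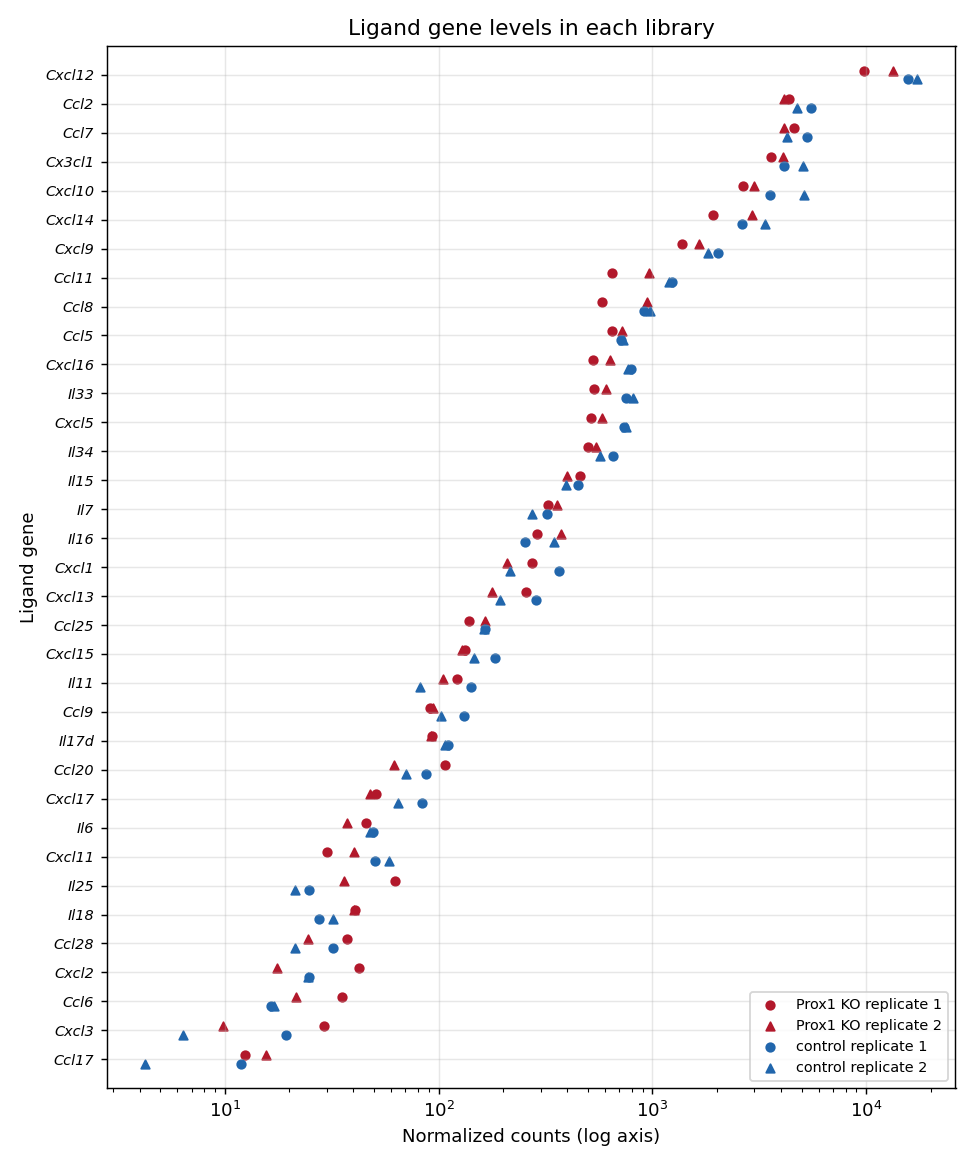
Normalized counts (horizontal log axis) of the 35 tested ligand genes, ordered by mean from top to bottom, with 1 symbol per library: red for Prox1 KO, blue for control, circles for replicate 1 and triangles for replicate 2. Among the most abundant genes the red symbols lie to the left of the blue ones, while the groups of Ccl7, Cxcl14, Ccl8 and Ccl5 overlap and several low genes show the opposite order.

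The falls were among the abundant genes. Of the 14 that averaged 500 or more normalized counts, 11 fell and all 14 were lower in both pairs, while of the 9017 tested genes at this level 7.2% fell and 2901 were lower in both pairs. Of the 21 under 500, 0 fell and 1 rose by limma, with 3 at an unadjusted p under 0.05, and edgeR called the same gene. Of all tested genes under 500, 5.08% fell and 1.69% rose, so the counts under 500 are near the background. The level of 500 was chosen after the values were seen, and low genes also have larger standard errors. Ccl17, with a mean of 11.1, was the last gene inside the minimum of 10, and Ccl1, with a mean of 3.27, was the first outside it.

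Summed over the 29 chemokine genes kept, normalized counts were 32357 and 38085 in the Prox1 KO libraries and 44542 and 47145 in the controls. Both Prox1 KO sums lay below both control sums. Cxcl12 alone made up 34.5% of the summed chemokine counts averaged over libraries, and the 5 highest genes 76.5%. The interleukin sums were smaller, at 2480 and 2601 in Prox1 KO and 2784 and 2695 in the controls. Per kilobase of exonic length, the scale on which genes can be compared with each other, Ccl7 had the highest mean level at 5699 normalized counts per kb. It was followed by Ccl2 at 4102, Cxcl12 at 1710, Ccl8 at 1667 and Cxcl10 at 1591 per kb, and the lowest tested genes were Ccl28 at 5.95 and Cxcl3 at 4.61 per kb.

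Promoter sequence was available for 23 of the 35 tested genes, in 28 windows of 250 bases upstream of RefSeq transcript starts (GRCm38.p6). Windows were searched on both strands for the NF-κB consensus and for the interferon-stimulated response element (ISRE), written GAAANNGAAA. The NF-κB consensus occurred in 8 genes (Ccl20, Ccl9, Cxcl1, Cxcl10, Cxcl2, Cxcl3, Il16 and Il6), beside 3.9% of all 32851 windows, and 28.6% of the ligand windows held it. The ISRE letters occurred in Cxcl10 and Cxcl14, or 7.14% of the ligand windows, beside 2.98% of all windows. Of the 8 genes with the NF-κB letters 1 fell (Cxcl10), both genes with the ISRE letters fell, and 7 of all 23 genes with a window fell. A match describes letters only and is not a binding site. The 4 windows shown are those of Cxcl12, the ligand with the most counts when length is not considered, Cxcl10 and Cxcl14, the genes with the ISRE letters, and Cxcl1, a gene with the NF-κB letters that did not pass the test. They run 5′ to 3′ on the gene's strand and end at the base before the transcript start, with matches in capitals. The window of Cxcl12 (chr6:117168285-117168534, plus strand) has no match. That of Cxcl10 (chr5:92348890-92349139, minus strand) has an ISRE match followed by 2 NF-κB matches. That of Cxcl14 (chr13:56296552-56296801, minus strand) has 1 ISRE match. In that of Cxcl1 (chr5:90890995-90891244, plus strand), 2 overlapping NF-κB matches form 1 run of capitals.
Cxcl12: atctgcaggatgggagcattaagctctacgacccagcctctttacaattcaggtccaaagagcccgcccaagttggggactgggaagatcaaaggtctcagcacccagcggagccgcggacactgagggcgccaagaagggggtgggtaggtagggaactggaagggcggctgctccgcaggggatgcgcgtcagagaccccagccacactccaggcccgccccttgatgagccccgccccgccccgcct
Cxcl10: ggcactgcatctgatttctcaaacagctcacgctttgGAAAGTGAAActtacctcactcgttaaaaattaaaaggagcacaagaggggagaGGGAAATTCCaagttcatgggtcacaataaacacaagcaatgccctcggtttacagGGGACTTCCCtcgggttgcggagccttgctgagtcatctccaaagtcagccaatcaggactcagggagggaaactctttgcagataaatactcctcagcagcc
Cxcl14: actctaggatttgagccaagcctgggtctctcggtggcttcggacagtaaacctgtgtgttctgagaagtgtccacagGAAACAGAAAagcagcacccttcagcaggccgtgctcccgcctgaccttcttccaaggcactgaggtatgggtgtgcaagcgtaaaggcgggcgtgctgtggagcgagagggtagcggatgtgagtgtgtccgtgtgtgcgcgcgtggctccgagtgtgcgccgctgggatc
Cxcl1: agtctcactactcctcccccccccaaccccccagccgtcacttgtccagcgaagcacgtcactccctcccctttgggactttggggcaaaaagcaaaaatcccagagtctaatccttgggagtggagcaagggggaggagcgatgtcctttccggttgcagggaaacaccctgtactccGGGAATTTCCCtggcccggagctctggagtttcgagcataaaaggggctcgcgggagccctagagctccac

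Of the 3 chemokines that bind the receptor CXCR3, Cxcl9 and Cxcl10 fell in Prox1 KO and Cxcl11 did not pass the test. They are known as interferon-induced attractants of T cells, and their genes lie together on chr5:92321347-92365485. GENCODE vM21 annotates Cxcl11 as a polymorphic pseudogene and the other members as protein-coding. Cxcl10 (ENSMUSG00000034855, chr5:92346638-92348889, minus strand), whose promoter letters are shown above, had normalized counts of 2652 and 2984 in Prox1 KO and 3555 and 5137 in the controls. Both Prox1 KO libraries lay below both controls, and the 2 controls differed from each other more than the Prox1 KO libraries did. Its log2 fold change was -0.60 ± 0.06 (SE, n = 2 per group, adjusted p = 2e-05, limma), with -0.42 and -0.78 in the pairs. This SE, like every SE given, is from limma with variance shared across genes, and does not describe the spread of the 2 pairs. The log2 difference of Cxcl10 was -0.34 without control replicate 2 and with no block. Cxcl9 was at 1376 and 1657 in Prox1 KO and at 2036 and 1826 in the controls, and fell by 0.35 on the log2 scale (SE 0.08, adjusted p = 0.00675, limma). The difference in Cxcl9 was -0.57 in the first pair and -0.14 in the second, and -0.22 without Prox1 KO replicate 1 and with no block. Cxcl11 was low, at 30.1 and 40.1 in Prox1 KO and 50.5 and 58.5 in the controls, with a log2 difference of -0.63 ± 0.26 that did not pass (adjusted p = 0.145, limma). Both Cxcl11 values in Prox1 KO were below both controls. Of the 100-base windows of the longest Cxcl11 transcript, 40.1% also occur in the antisense gene Gm2673, and how strand entered the counting is not given in the sources used here, so the value of Cxcl11 is uncertain.

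Among the other CXC chemokines, 3 of 5 fell and all 5 were lower in both pairs. Cxcl12 (ENSMUSG00000061353, chr6:117168535-117181367, plus strand), the stromal ligand of CXCR4 that retains haematopoietic and other progenitor cells, was at 9751 and 13314 normalized counts in Prox1 KO and at 15604 and 17249 in the controls. The groups did not overlap, although the Prox1 KO libraries differed by more than the controls. Its log2 fold change was -0.53 ± 0.06 (SE, n = 2 per group; adjusted p = 1.68e-05, limma), with -0.68 and -0.37 in the pairs, and the log2 difference was -0.30 without Prox1 KO replicate 1 and with no block. Cxcl14, a chemokine made constitutively by epithelia and stroma, was at 1912 and 2927 in Prox1 KO and at 2621 and 3349 in the controls. Its higher Prox1 KO library exceeded the lower control, so the groups overlapped, and the call (log2 fold change -0.32 ± 0.06, adjusted p = 0.00172, limma) came from the within-pair differences of -0.45 and -0.19. With no block, the log2 difference of Cxcl14 was -0.02 without Prox1 KO replicate 1, -0.63 without Prox1 KO replicate 2, -0.50 without control replicate 1 and -0.15 without control replicate 2. Cxcl16, a membrane-anchored ligand of CXCR6, was at 525 and 631 in Prox1 KO and at 794 and 769 in the controls, and fell by 0.44 on the log2 scale (SE 0.09, adjusted p = 0.00327, limma). Its groups were separate, with -0.60 and -0.28 in the pairs, and 17.4% of its transcript windows are shared with the opposite-strand gene Zmynd15. Cxcl17, a mucosal chemokine, was at 50.9 and 47.9 in Prox1 KO and 83.5 and 64.9 in the controls, and did not pass (log2 difference -0.57 ± 0.23, adjusted p = 0.133, limma). Cxcl13, which attracts B cells, ranged from 177 to 286 with overlapping groups, a log2 difference of -0.14 and a 95% interval (unadjusted, from the limma fit, as are all intervals given) from -0.40 to 0.13.

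The ELR-type CXC chemokines, which attract neutrophils through CXCR2, gave 1 fall among 5 tested genes. Their genes lie together on chr5:90759360-90905938. Cxcl5 was at 514 and 584 in Prox1 KO and at 733 and 749 in the controls. Its groups were separate, and it fell by 0.44 on the log2 scale (SE 0.08, adjusted p = 0.00214, limma). Cxcl15 was at 133 and 128 against 184 and 146, also without overlap, but its log2 difference of -0.32 ± 0.16 did not pass (adjusted p = 0.22, limma). Cxcl1, with the overlapping NF-κB letters shown above, was at 272 and 208 against 365 and 215. In each group its second library was the lower one, and the log2 difference of -0.23 had a 95% interval from -0.50 to 0.03. Cxcl2 was at 42.6 and 17.6 in Prox1 KO and 24.8 and 24.5 in the controls, and its 2 pairs had opposite signs. Cxcl3 was at 29.1 and 9.77 against 19.3 and 6.39. Both Cxcl3 values numbered 2 were below both numbered 1, and its log2 difference of 0.56 ± 0.41 was within that spread (adjusted p = 0.458, limma). Cxcl2 and Cxcl3 share 2.95% and 1.71% of their transcript windows with each other.

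The monocyte chemoattractant and eotaxin genes Ccl2, Ccl7, Ccl8 and Ccl11, which lie on chr11:82035571-82305690, had the highest levels per kb of the CC chemokines, and 3 of the 4 fell. Of the same family, Ccl12 was under the minimum, and Ccl24 and Ccl26, on chr5:135560448-135573049, were at 0. Ccl2 (ENSMUSG00000035385, chr11:82035571-82037453, plus strand), the main CCR2 ligand for monocytes, was at 4337 and 4109 normalized counts in Prox1 KO and at 5486 and 4742 in the controls. The groups were separate, and its log2 fold change was -0.27 ± 0.05 (SE, n = 2 per group; adjusted p = 0.00107, limma), or -0.17 without control replicate 1 and with no block. Its neighbour Ccl7, another monocyte attractant, was at 4582 and 4142 in Prox1 KO and 5267 and 4270 in the controls. The Ccl7 groups overlapped, and its log2 difference was -0.12 ± 0.05 with a 95% interval from -0.22 to -0.02 and an adjusted p of 0.116 in limma. Ccl11, or eotaxin, which attracts eosinophils through CCR3, was at 648 and 964 in Prox1 KO and at 1237 and 1194 in the controls. Both Prox1 KO values were below both controls, and it fell by 0.62 on the log2 scale (SE 0.10, adjusted p = 0.00101, limma), by 0.93 in the first pair and by 0.31 in the second. Without Prox1 KO replicate 1 and with no block, its log2 difference was -0.33. Ccl8 was at 579 and 942 in Prox1 KO and at 910 and 977 in the controls. Its difference lay almost wholly in the first pair, at -0.65 against -0.05 in the second. Its call (log2 fold change -0.35 ± 0.10, adjusted p = 0.0383, limma) was lost with a pseudocount of 10 (adjusted p = 0.0546, limma), and with no block its log2 difference was -0.0009 without Prox1 KO replicate 1 and -0.70 without Prox1 KO replicate 2. Ccl1, a CCR8 ligand in the same cluster, was also under the minimum. It was at 4.16 and 0.977 normalized counts in Prox1 KO and 3.67 and 4.26 in the controls.

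In the other CC chemokines 0 of 7 passed the test in limma, with 0 at an unadjusted p under 0.05, and 0 passed in edgeR and DESeq2. DESeq2 gave Ccl6, Ccl17 and Ccl28 no adjusted p, so these could not pass in it. Ccl5, or RANTES, which attracts T cells and monocytes, was the most abundant of these at 646 and 720 in Prox1 KO and 714 and 726 in the controls. Its groups overlapped, and the log2 difference of -0.08 had a 95% interval from -0.24 to 0.08. Ccl25, the gut and thymus ligand of CCR9, ranged from 139 to 165, with a 95% interval of the log2 difference from -0.43 to 0.21. Ccl9 was at 91.4 and 93.8 in Prox1 KO and 131 and 102 in the controls, separate groups with a log2 difference of -0.32 ± 0.18 (adjusted p = 0.318, limma). Ccl20, a CCR6 ligand, ranged from 61.6 to 107 and Ccl28, a mucosal chemokine, from 21.3 to 37.4, with the highest value of each in Prox1 KO replicate 1. Ccl6 was at 35.3 and 21.5 against 16.5 and 17.0, and Ccl17, a CCR4 ligand, at 12.5 and 15.6 against 11.9 and 4.26. Both Prox1 KO values of Ccl6 and Ccl17 were above both controls, but the log2 differences of 0.69 ± 0.36 and 0.86 ± 0.51 did not pass (adjusted p = 0.267 and 0.337, limma). The Ccl17 values rest on 4 to 16 reads per library.

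Cx3cl1 (ENSMUSG00000031778, chr8:94772009-94782427, plus strand), or fractalkine, is a membrane-tethered chemokine that binds CX3CR1 on monocytes and microglia. It was at 3589 and 4095 normalized counts in Prox1 KO and at 4118 and 5056 in the controls. The higher Prox1 KO library and the lower control nearly touched, and its log2 fold change was -0.25 ± 0.05 (SE, n = 2 per group; adjusted p = 0.00185, limma), with -0.20 and -0.30 in the pairs. With no block, it was -0.16 without Prox1 KO replicate 1, -0.40 without control replicate 1 and -0.10 without control replicate 2.

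**Figure D2:**
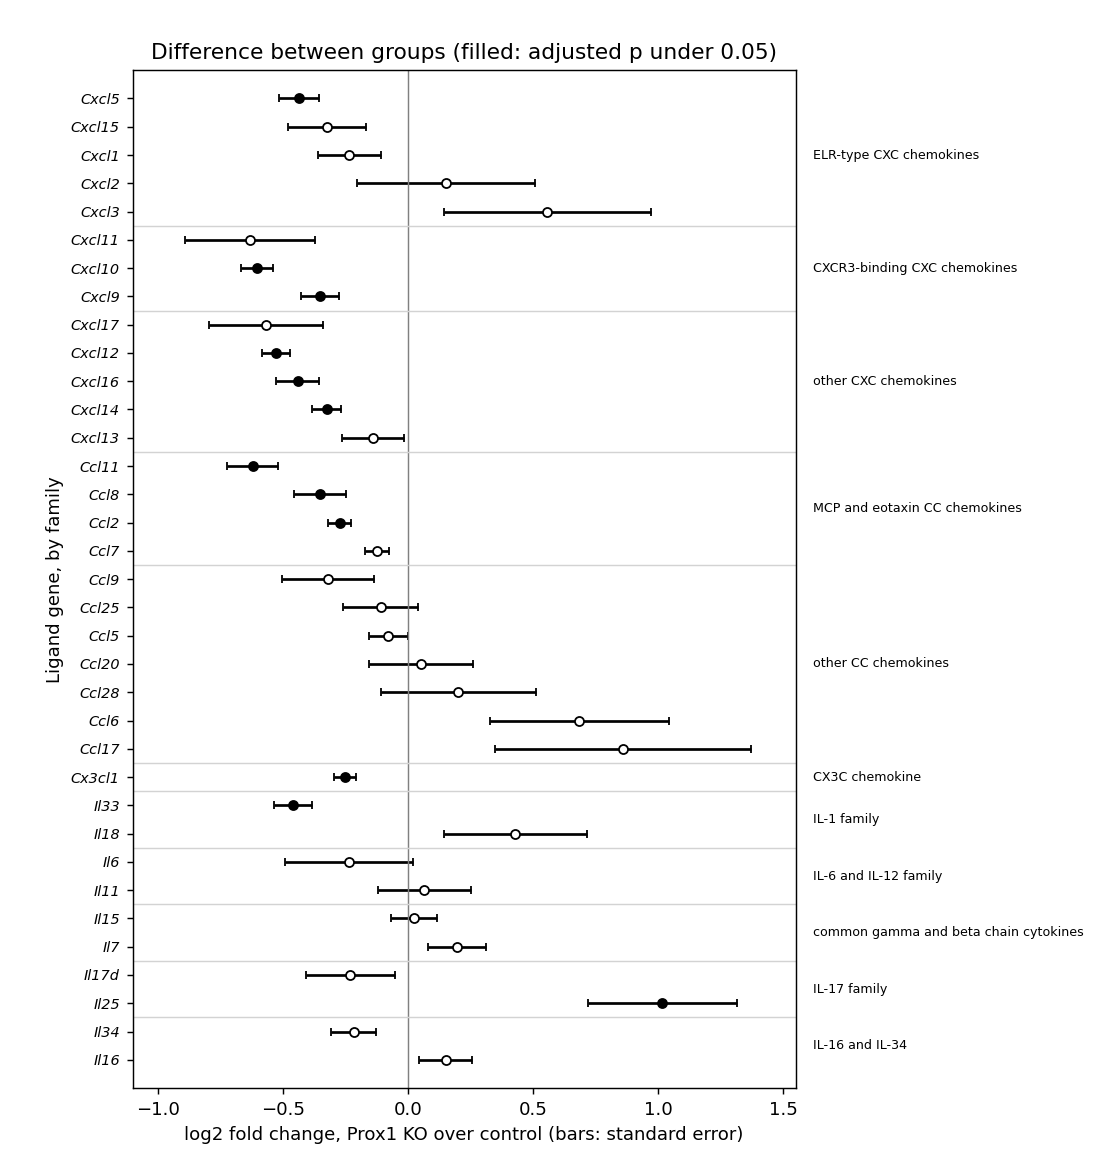
Log2 fold change of Prox1 KO over control on the log2(normalized counts + 1) scale (horizontal axis) for the 35 tested ligand genes, grouped by family, with bars of 1 standard error from limma and filled points for an adjusted p under 0.05. The 11 filled points to the left of 0 are 10 chemokines and Il33, and the 1 filled point to the right is Il25.

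Of the 10 tested interleukin genes, 1 fell and 1 rose, which is near the background of 6.29% lower and 5.09% higher. Their median log2 fold change was 0.05, beside 10 of 25 lower, 0 higher and a median of -0.27 for the chemokines; the difference between these medians was not tested. In the IL-1 family, Il33 (ENSMUSG00000024810, chr19:29925114-29960718, plus strand), a nuclear alarmin released from stromal and epithelial cells, was at 531 and 606 normalized counts in Prox1 KO and at 750 and 811 in the controls. Its groups were separate and its pairs alike, at -0.50 and -0.42, and it fell by 0.46 on the log2 scale (SE 0.08, adjusted p = 0.00106, limma). Il18, which is matured by inflammasomes, was at 40.5 and 40.1 against 27.5 and 31.9. These groups were separate too, in the opposite direction to Il33, but the log2 difference of 0.43 ± 0.29 did not pass (adjusted p = 0.398, limma).

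Il25 (ENSMUSG00000040770, chr14:54932695-54935837, plus strand), an IL-17 family cytokine that promotes type 2 responses, was the gene that rose. It was at 62.4 and 36.2 normalized counts in Prox1 KO and at 24.8 and 21.3 in the controls, from 60, 37, 27 and 20 reads. Both Prox1 KO values were above both controls, but they differed from each other by more than the lower of them did from the controls. Its log2 fold change was 1.02 ± 0.30 (SE, n = 2 per group; adjusted p = 0.0381, limma), DESeq2 gave it no adjusted p, and the log2 difference was 0.63 without Prox1 KO replicate 1 and with no block. Il17d, of the same family, was at 93.5 and 91.9 against 110 and 108, separate groups with a log2 difference of -0.23 ± 0.18 (adjusted p = 0.484, limma).

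The remaining tested interleukins did not pass. Il6, the inducer of the acute phase response in hepatocytes, was at 45.7 and 37.1 in Prox1 KO and at 49.6 and 47.9 in the controls, separate groups with a 95% interval of the log2 difference from -0.78 to 0.31. Il11, a gp130 cytokine of stromal cells, ranged from 82.0 to 141, both extremes being controls. Il15, which sustains natural killer and memory T cells, was at 459 and 400 against 451 and 394, with a log2 difference of 0.02 and a 95% interval from -0.17 to 0.22. Its values followed the replicate number and not the group. Il7, the stromal survival factor of lymphocytes, was at 324 and 357 against 321 and 274, with an interval from -0.05 to 0.44. Il34, a second ligand of the CSF1 receptor, was at 501 and 547 against 652 and 568, separate groups whose log2 difference of -0.22 ± 0.09 did not pass (adjusted p = 0.158, limma). Il16, a lymphocyte attractant, ranged from 253 to 375 with overlapping groups, and 20.8% of its transcript windows are shared with the opposite-strand genes Stard5 and 2310044K18Rik. Il34, Il7 and Ccl25 also overlap genes on the opposite strand, as does Cxcl10, which shares 1.6% of its transcript windows with Art3.

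**Figure D3:**
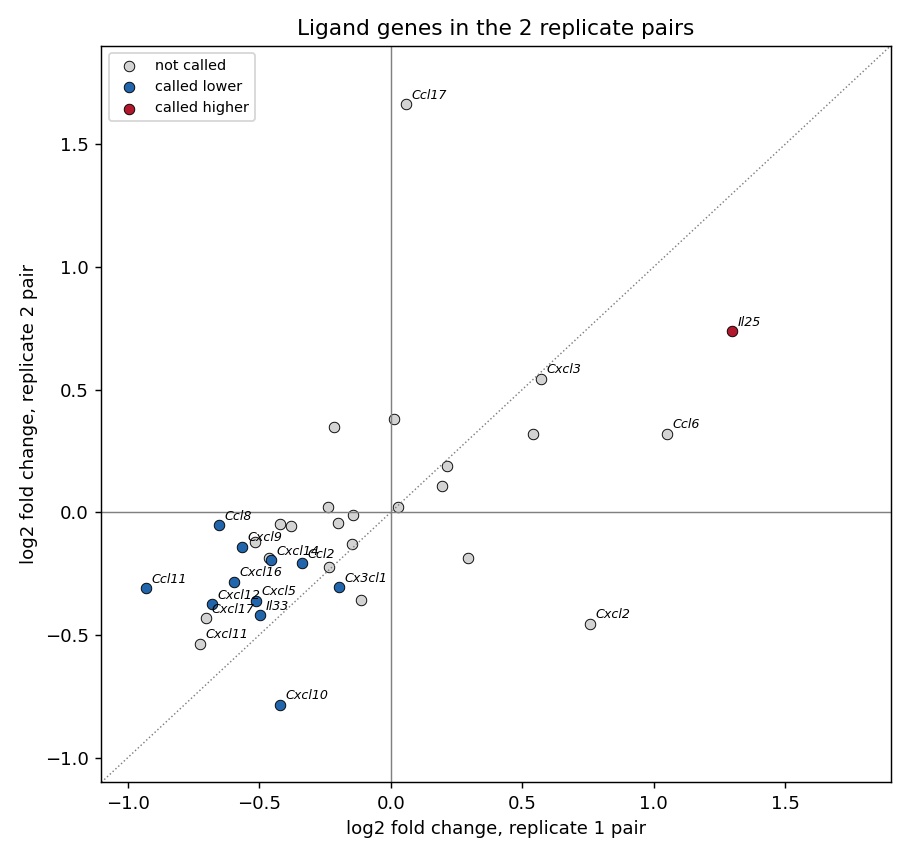
Log2 fold change of Prox1 KO over control in the libraries numbered 1 (horizontal axis) and numbered 2 (vertical axis), 1 point per tested ligand gene, with called genes in colour and the dotted line marking equality. Of the 35 genes, 22 were below 0 in both pairs, 9 above 0 in both and 4 had opposite signs, and most of the called falls were larger in the first pair.

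The 10 kept genes under the minimum were 4 chemokines (Ccl1, Ccl12, Ccl4 and Ccl22) and 6 interleukins. They had at most 5 reads in any library and were not tested. The 21 genes at 0 were 4 chemokines (Ccl3, Ccl19, Ccl24 and Ccl26) and 17 interleukins, among them the myeloid and lymphoid cytokines Il1a, Il1b, Il4, Il10, Il12a, Il12b, Il13 and Il17a. A count of 0 allows up to 3 reads in a library by counting error alone, so these genes were not detected at this depth.

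Chemokine receptors were mostly scarce, whereas most interleukin receptors were expressed. Of 23 chemokine receptor genes, 5 were at 0 in every library, among them Cxcr3 and Ccr2, and 6 could be tested. In limma 0 of the 6 passed, with 0 at an unadjusted p under 0.05, and the highest, Ackr3, a scavenging receptor for Cxcl12, was at 928 and 847 normalized counts in Prox1 KO and at 989 and 938 in the controls. Cxcr4, the signalling receptor for Cxcl12, was below 7 normalized counts in every library. Of 40 interleukin receptor genes 29 could be tested, and 1 rose and 4 fell. That is 17.2% called in either direction, beside a background of 11.4% over all genes tested. Il6ra, the ligand-binding chain for Il6, rose by 0.20 on the log2 scale (adjusted p = 0.0371, limma). Il22ra1, an epithelial receptor chain, fell by 1.03 (adjusted p = 0.000581, limma), from 169 and 208 in the controls to 80 and 104, and Il13ra1, Il11ra1 and Il1r1 fell by 0.30, 0.22 and 0.21.

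A list of soluble antagonists and decoy receptors, which also held the membrane receptor Sigirr, had 4 falls among 7 tested genes. This is 57.1%, beside a background of 6.29% lower over all genes tested. Il13ra2, a decoy for Il13, was at 190 and 290 in Prox1 KO and at 397 and 403 in the controls, with a log2 fold change of -0.76 (adjusted p = 0.00128, limma). Sigirr, which dampens IL-1 family signalling, was at 32.2 and 44.0 against 90.0 and 88.4, a fall of 1.22 (adjusted p = 0.00306, limma). Il18bp, which binds Il18, fell by 0.43 (adjusted p = 0.0324, limma), while its ligand Il18 did not pass. Il1rn fell by 0.15 (adjusted p = 0.0496, limma), although its value ranged from 4083 to 11306 with the replicate number. Of 13 other tested cytokine ligands outside the naming rule, 2 rose, Csf1 by 0.24 among them, and 2 fell, Tnfsf10 by 0.85 and Ctf1 by 0.45. Calls in either direction were 30.8% of these 13, beside 11.4% over all genes tested.

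Genes of the pathways that commonly induce chemokines were set beside the background of 6.29% lower and 5.09% higher over all genes tested, or 7.2% and 7.64% of genes that averaged 500 or more. Of 40 tested NF-κB pathway and feedback genes, 7 fell and 2 rose, with a median log2 fold change of -0.06. Falls of 0.38 in Bcl3, 0.37 in Vcam1, 0.29 in Tlr3 and 0.25 in Tlr2 stood beside rises of 0.21 in Ptgs2 and 0.19 in Rela, which encodes an NF-κB subunit. Of 28 interferon-stimulated genes, 10 fell and 1 rose, again with a median of -0.06. Mx1, an antiviral GTPase, fell by 0.33, Socs3, a feedback inhibitor of cytokine signalling, by 0.32, Oasl1 by 0.26 and Rsad2 by 0.24, and Ifi27 rose by 0.16. Each of these falls was smaller than that of Cxcl10; the differences between them were not tested.

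**Figure D4:**
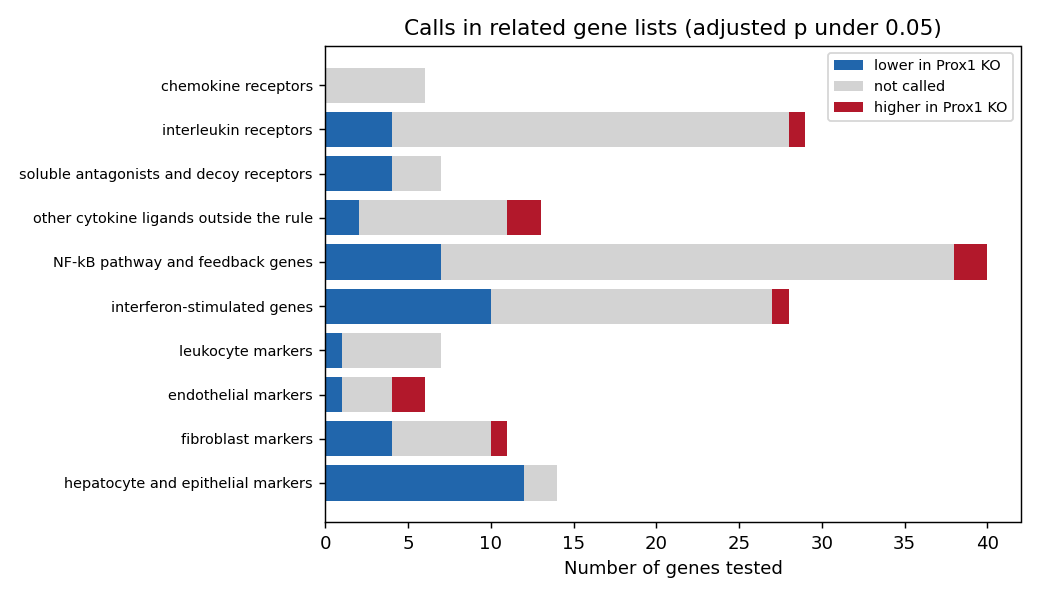
Number of tested genes (horizontal axis) in each of 10 related gene lists, divided into genes lower in Prox1 KO (blue), not called (grey) and higher (red) at an adjusted p under 0.05 in limma. Falls outnumber rises in 7 of the 10 lists, and the hepatocyte and epithelial markers have the highest share, with 12 of 14 lower.

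Markers of the cells that the cultures could hold moved with some of the ligands. Their calls stand beside a background of 6.29% lower and 5.09% higher over all genes tested. All 11 fibroblast markers were detected, as were all 14 hepatocyte and epithelial markers, so detection alone does not identify the cells. Of the fibroblast markers 4 fell, Lum by 0.91, Pdgfra by 0.48, Dcn by 0.43 and Col3a1 by 0.43, while S100a4 rose by 0.18. Summed fibroblast marker counts nevertheless overlapped between groups, at 1481261 to 1713586 in Prox1 KO and 1461024 to 1777832 in the controls. Of the 14 hepatocyte and epithelial markers 12 fell, with a median of -0.92. Epcam fell by 1.58, Trf by 1.31, Krt8 by 1.30 and Cdh1 by 1.12, and the summed level was 26545 to 29552 in Prox1 KO and 38372 to 46334 in the controls. Endothelial markers gave 2 rises, Vwf by 1.34 and Kdr by 0.67, and 1 fall, Egfl7 by 0.62, with Cldn5 at 0. Vwf was low, at 30.1 and 23.5 normalized counts in Prox1 KO and 9.18 and 10.6 in the controls. The 3 tested markers that did not pass in limma, Tek, Esam and Emcn, had opposite signs in the 2 pairs. The summed level of the endothelial markers was 1071 to 1216 in Prox1 KO and 818 to 902 in the controls. Kdr alone, at 938 and 770 in Prox1 KO and 564 and 509 in the controls, made up most of it. Pecam1, Cdh5 and Tie1, with means of 5.92, 6.01 and 1.28, were under the minimum and not tested. The part of these markers in the ligand differences was not tested.

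Most leukocyte markers were near the floor. Of 30, 10 were at 0 in every library, including Adgre1, Tyrobp and Cd3e, and Ptprc, the pan-leukocyte marker, was between 6.43 and 9.77 normalized counts. Of the 7 tested, 0 rose and 1 fell, or 14.3% called, near the background of 11.4% over all genes tested. The gene that fell was Cd14, at 204 and 245 in Prox1 KO and 348 and 393 in the controls, with a log2 fold change of -0.72 (adjusted p = 0.000581, limma). The next highest, Cd68, was at 206 and 232 in Prox1 KO and 171 and 159 in the controls and did not pass (adjusted p = 0.0758, limma). Csf1r, at 71.7 and 89.0 in Prox1 KO and 104 and 92.6 in the controls, did not pass either (adjusted p = 0.411, limma). The summed level of the 30 markers was 593 to 703 in Prox1 KO and 745 to 756 in the controls, and Cd14 and Cd68 made up most of it.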

How the data were processed

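Libraries followed the dUTP protocol and were sequenced as 2 x 100 bp reads. Per the labels, reads were processed with STAR, DESeq2 and the mm10 build, and the counting tool is not given in the sources used here. The deposited table holds a signal per gene, read counts divided by each library's size factor by the authors. A deposited table of the authors' own comparison (fold changes and p-values) was not used. Whole reads were recovered from the step between values, with 100% of positive values whole within 0.01 in each library, and 42469031 to 48524008 reads on genes. Counting error covers neither amplification nor culture, and low genes have the larger errors.

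The 15809 of 55397 genes that averaged 10 or more normalized counts were tested on log2(value + 1), a scale that understates changes of low genes, with limma 3.58.1 in R 4.3.3 (trended variance, blocked on replicate number, Benjamini-Hochberg, threshold 0.05). The block follows the methods' use of the primary MEF line as a covariate; deviations of same-numbered libraries from their group means correlated across 15809 genes with r = 0.402, a description across genes that are not independent. Alternatives were edgeR 4.0.16 and DESeq2 1.42.0 on recovered reads, other pseudocounts (0.1 and 10), filters (1, 50 and none) and scaling, and left-out libraries. Scripts were tested on simulated data. Ligand genes and gene lists were chosen with earlier results of these data known. All tested ligands were named, as were untested ones averaging at least 3 and, of each list, up to 4 called genes in each direction, except that some results for listed genes are not reported here; Ackr3 and Cxcr4 as well as the markers and receptors given at 0 were chosen after their values were seen. Coordinates and exonic lengths are from GENCODE vM21 on GRCm38 (55137 identifiers matched), and promoter sequences are from RefSeq on GRCm38.p6.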

Additional observations from a re-analysis of the deposited data

How the results depend on the processing

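The calls depended on the replicate block and, in part, on the tool. Of 35 ligand genes, 12 passed with the block in limma and in edgeR, and 10 to 12 with the other pseudocounts, filters and quantile normalization. The filters of 1, 50 and none tested 41, 26 and 45 ligand genes. The size of a p-value depended on the filter: for Ccl11, at a log2 fold change of -0.62 in both, the adjusted p in limma was 0.00101 in the main fit and 7.02e-17 with a minimum of 1. Without the block 0 passed in limma (10 at an unadjusted p under 0.05), 0 in edgeR (10) and 0 in DESeq2 (9), and DESeq2 with the block called 5. Over all genes, limma and edgeR without the block also called 0, and DESeq2 without it called 160. The numbers of the libraries are not stated to be MEF lines, so whether the block belongs in the fit is not known. The log2 fold changes in limma are the same with and without the block. Over the 10 related lists, 54 of 160 genes passed with the block, 0 without it in limma and 0 in edgeR (39 unadjusted in each), 21 in DESeq2 with it and 10 in DESeq2 without it. Leaving out 1 library at a time without the block gave 0 to 3 ligand calls, the 3 being Ccl11, Ccl8 and Cxcl12 without Prox1 KO replicate 2, and 0 to 10 list calls; the lone library of a group is then assumed to vary like the other group. Leaving out a pair leaves no test. The median log2 fold change of the ligands lay between -0.27 and -0.12 with a library or pair left out, at -0.13 without replicate 1, -0.23 without replicate 2 and -0.12 without control replicate 1, and between -0.26 and -0.16 under the other settings.

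No called ligand changed sign under any setting run. With 1 library left out and no block, the log2 differences of 12 uncalled genes did. Without Prox1 KO replicate 1 they were -0.34 for Ccl20, 0.014 for Ccl25, -0.095 for Ccl28, 0.0007 for Ccl5, -0.46 for Cxcl2, -0.18 for Cxcl3, -0.042 for Il11 and -0.076 for Il15. Without Prox1 KO replicate 2 they were 0.13 for Cxcl13 and -0.035 for Il16. Without control replicate 1 they were 0.029 for Ccl7, 0.15 for Cxcl1, 0.14 for Cxcl13 and -0.077 for Il16. Without control replicate 2 they were -0.10 for Ccl20, -0.084 for Ccl28, -0.17 for Cxcl3, -0.32 for Il11 and -0.073 for Il15. Ccl8 also lost its call at a minimum mean of 50, with a pseudocount of 10 and under quantile normalization. With 2 libraries a group and under 100 reads for the lowest genes, small differences in them could not be resolved. The causes of these changes were not tested.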
